A study of Mus musculus with 103 samples.

Results

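Genes of the sarcomere and of the muscle fibre were followed in muscle stem cells of C57BL/6 mice at 3 ages. The 34 genes encode myosin chains, actins, troponins, tropomyosins, the giant proteins of the filaments, Z-disc proteins, the intermediate filament protein desmin, calcium-handling proteins, creatine kinase and myoglobin. They were taken by gene symbol, and all 34 were matched, out of 43283 genes with an Ensembl identifier in the table of bulk libraries and 43282 in the table of single-cell wells. A sarcomere is the contractile unit of a muscle fibre, in which myosin thick filaments pull on actin thin filaments between 2 Z-discs, and calcium released from the sarcoplasmic reticulum switches the pull on through troponin and tropomyosin. Muscle stem cells lie on the fibres, carry the transcription factor Pax7 and have no sarcomeres. Most of these genes come on when the progeny of the stem cells differentiate and fuse into fibres, and fast, slow and developmental fibres use different members of each protein family.

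RNA was sequenced from pools of cells (bulk libraries) of 3 young, 2 middle-aged and 3 old mice, and from single wells of 1 young mouse (64 wells) and 1 old mouse (31 wells). All mice were untreated, and the labels give no genotype. The middle-aged mice were 12 and 13 months old and the old mice 24 months. A label field gives 3 months for the young mice and a description of the bulk libraries 2 months. The source is labelled muscle stem cell, and the design text speaks of myoblasts, the dividing progeny of stem cells. A culture step after isolation is described, but its place relative to RNA extraction is not, and no sort gate is given.

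Levels are in TPM, a measure of transcript abundance that corrects for transcript length and scales each library to the same total. The number of reads behind each value is therefore unknown, and only a general range for all samples, with reads of 75 bases, is in the labels' protocol. Between 12849 and 17114 genes reached 1 TPM per library, and mitochondrially encoded RNA took 32.7 to 46.5% of TPM. Among the 22492 genes that averaged 1 TPM or more, 66.1% had a 0 in some library, so a value of 0 is reported as listed and not read as absence. Pax7 was present throughout, with 308, 316 and 248 TPM in young mice, 231 and 127 in middle-aged mice and 219, 246 and 185 in old mice. In bulk RNA, fewer cells that express a gene and less RNA per cell cannot be told apart.

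A small set of fibre genes stood far above the rest. Des, Tpm1 and Tpm2 averaged 125, 112 and 86.1 TPM over the 8 libraries, and Mybpc1 came next with 31.7 TPM. These 4 genes supplied a mean of 299 of 399 TPM for all members in young libraries, 346 of 445 in middle-aged and 415 of 576 in old libraries. Only 6 of the 34 genes (Des, Tpm1, Tpm2, Mybpc1, Ttn and Neb) were above 0 in all 8 libraries. Another 25 were listed at 0 in some libraries, and Pvalb, Tnni1 and Myoz1 in all 8. Of the 34 genes, 24 had a mean of at least 1 TPM and entered the tests, 8 had a mean of at least 10 TPM, and 16 never reached 10 TPM in any library. Over all genes, 52% had a mean of at least 1 TPM. The median of the means was 3.02 TPM over the members and 1.17 TPM over all genes.

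**Figure D1:**
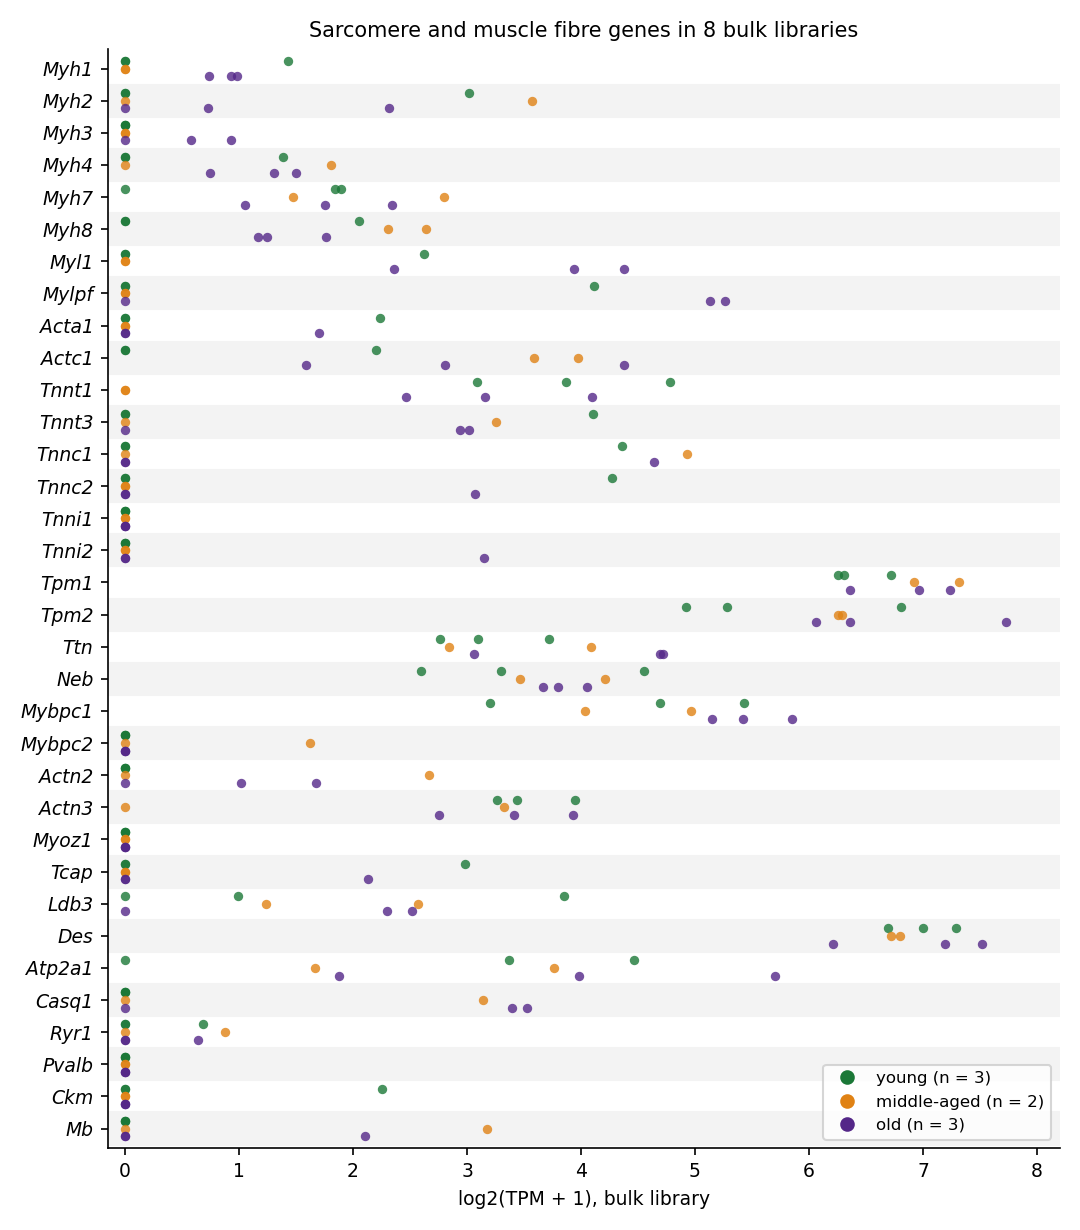
Level of each of the 34 genes in each bulk library, as log2(TPM + 1) on the horizontal axis, with 1 point per library coloured by age (3 young, 2 middle-aged, 3 old) and genes ordered by role. Des, Tpm1 and Tpm2 lie far to the right of the others, while most other genes have points at 0 in 1 or more libraries.

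Des encodes desmin, the intermediate filament protein that links neighbouring Z-discs and is made in myogenic cells before they fuse. The gene lies at chr1:75360329-75368579 (mm10, plus strand), and 98.7% of all genes in the table had a lower mean. It was measured at 155, 102 and 127 TPM in young mice, 110.3 and 105 in middle-aged mice and 73.02, 145 and 182 in old mice. The old libraries held both the lowest and the highest value, and the 3 ages overlapped. Des is overlapped by an antisense transcript, Gm15179, over 5.86% of its exon bases. The strandedness of the libraries is not given in the sources used here, so reads of such partners cannot be told apart.

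The tropomyosins, which lie along actin and block or free its myosin sites, were the next highest. Tpm1, at chr9:67022590-67049406 (minus strand), stood at 104, 75.4 and 78.2 TPM in young mice, 120.3 and 159 in middle-aged mice and 81.4, 149.7 and 124 in old mice. Both middle-aged libraries were above all 3 young ones, while the old libraries spanned the young and middle-aged range. Tpm2, at chr4:43514711-43523765 (minus strand), stood at 111, 29.3 and 37.99 TPM in young mice, 77.4 and 75.5 in middle-aged mice and 65.7, 210.5 and 81.4 in old mice. Old library 2 was the highest, and young library 1 lay above both middle-aged libraries. Tpm1 and Tpm2 are also made in cells outside skeletal muscle, including smooth muscle.

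The upstream sequences of these most abundant genes are shown because an E-box (CANNTG), the site that myogenic factors such as Myod1 and Myf5 can bind, lies in each of them. They were read from the RefSeq promoter table (GRCm38.p6, the assembly of mm10), searched on both strands over the 250 bases before the RefSeq start, and are written 5′ to 3′ on the gene's strand with complete E-boxes in capitals. Des has 2 E-boxes, which begin 220 and 36 bases before the start, and all 250 bases at chr1:75360042-75360291 are shown. Tpm2 has 1, which begins 227 bases before the start, and only the 39 bases at chr4:43523766-43523804 that lie upstream of every annotated exon are shown. The single E-box of Tpm1 begins 198 bases before the start and runs into an annotated first exon.
Des: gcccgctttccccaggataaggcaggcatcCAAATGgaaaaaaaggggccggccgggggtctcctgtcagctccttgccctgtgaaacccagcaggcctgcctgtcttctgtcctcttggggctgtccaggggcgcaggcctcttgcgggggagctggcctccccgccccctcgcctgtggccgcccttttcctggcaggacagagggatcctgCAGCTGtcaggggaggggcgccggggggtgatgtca
Tpm2: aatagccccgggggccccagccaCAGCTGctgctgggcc

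Such matches are common. The 28 members matched in that table have 34 promoters there. An E-box was found in 66.2% of all 32841 promoters and in 27 of these 34, from 23 of the 28 members. Sites for MEF2, a partner of the myogenic factors, were found by its usual motif in 5 of the 34 and in 2.92% of all promoters. They belong to Myh1, Myh4, Myh8, Pvalb and Ttn. A CArG box, the site of serum response factor, was found in 5 of the 34 and in 1.47% of all promoters. These belong to 4 members (Acta1, Actc1, Ldb3 and Myh4). A TATA box (TATAAA), which a MEF2 motif can overlap, was found in 7 of the 34 and in 12.4% of all promoters. None of the 3 other motifs was found in the 250 bases before Des, Tpm1 or Tpm2. These matches describe letters only.

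Of the troponin genes, which encode the calcium switch of the thin filament, Tnnc1, Tnnc2, Tnni1 and Tnni2 were listed at 0 in 5 or more of the 8 libraries. Tnnt1, the slow tropomyosin-binding subunit at chr7:4504570-4516382 (minus strand), was found in 6 libraries, with 26.5, 13.6 and 7.50 TPM in young mice, 0 and 0 in middle-aged mice and 7.90, 4.52 and 16.1 in old mice. All young and old libraries held it and both middle-aged libraries were listed at 0. Its fast counterpart Tnnt3 was found in 4 libraries, at 16.2 TPM in young library 1, 8.55 TPM in middle-aged library 1, and 7.11 and 6.68 TPM in old libraries 1 and 2. The slow calcium-binding subunit Tnnc1 reached 19.5, 29.5 and 23.9 TPM in library 1 of each age and was listed at 0 in the other 5. Its fast counterpart Tnnc2 stood at 18.3 TPM in young library 2 and 7.38 TPM in old library 1 only. Of the exon bases of Tnnc2, 74% are covered by Ube2c on the opposite strand. Ube2c was listed at 8.74 TPM in old library 1, and at 0 in young library 2, where Tnnc2 was highest. In old library 3 it was listed at 3.61 TPM, while Tnnc2 was at 0. The fast inhibitory subunit Tnni2 had 7.85 TPM in old library 1, and the slow one, Tnni1, was at 0 throughout. Tnni2 and Tnnt3 are neighbours on chromosome 7 (142441808 to 142444410 and 142498836 to 142516009), and old library 1 alone held both.

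The sarcomeric actins were low beside the most abundant members. Acta1, the actin of adult skeletal fibres, was listed at 3.72 TPM in young library 1 and 2.26 TPM in old library 3, and at 0 in the other 6. Actc1, the cardiac actin that developing and regenerating skeletal muscle also uses, lies at chr2:114047282-114053548 (minus strand). It stood at 3.60, 0 and 0 TPM in young mice, 11.02 and 14.7 in middle-aged mice and 5.98, 2.01 and 19.7 in old mice. All 5 middle-aged and old libraries held it, against 1 of 3 young ones. Reads of 75 bases tell these actins apart from other genes: 0.437% of such stretches of Acta1 and 0% of Actc1 occur in the transcripts of another gene.

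The skeletal myosin heavy chains, the motors of the thick filament, were low in every library beside the most abundant members. Their 6 genes summed to 14.5, 4.40 and 0 TPM in young mice, 24.6 and 5.72 in middle-aged mice and 4.33, 13.04 and 7.71 in old mice. No gene of the 6 passed 10.9 TPM in any library, a value of Myh2 in middle-aged library 1. Myh2, Myh1 and Myh4 encode fast adult heavy chains, and Myh3 and Myh8 the embryonic and perinatal ones. These 5 genes form a cluster on chromosome 11, in the order Myh3, Myh2, Myh1, Myh4, Myh8, from 67078300 to 67308634. Myh8 was listed at 3.15, 0 and 0 TPM in young mice, 5.24 and 3.95 in middle-aged mice and 1.24, 1.37 and 2.39 in old mice, so both middle-aged libraries were above every other library. Myh3 was listed at 0.9 and 0.49 TPM in old libraries 2 and 3 and at 0 elsewhere. The slow heavy chain Myh7 stood between 1.08 and 5.97 TPM in 7 libraries and at 0 in young library 3. Part of each sequence is shared within the family: 21.97% of the 75-base stretches of Myh1, 18.3% of Myh2, 19.7% of Myh7 and 12.9% of Myh8 occur in another gene, so the split of reads among them is uncertain.

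The light chains, small subunits that bind the neck of the myosin head, were found in few libraries at once. Myl1, the essential light chain of fast fibres at chr1:66924295-66945404 (minus strand), stood at 5.17, 0 and 0 TPM in young mice, 0 and 0 in middle-aged mice and 19.7, 4.14 and 14.4 in old mice. All 3 old libraries held it, young library 1 lay between them, and the other 4 were listed at 0. A pseudogene, Mylf-ps, shares 16.6% of its 75-base stretches. Mylpf, the regulatory light chain of fast fibres, was at 16.3 TPM in young library 2, at 34.1 and 37.4 TPM in old libraries 1 and 3, and at 0 in the other 5. Only old libraries 1 and 3 held both light chains above 10 TPM.

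Another group of members encodes proteins that span or brace the filaments. The 4 genes (Mybpc1, Mybpc2, Ttn and Neb) summed to 56.7, 42.8 and 37.5 TPM in young mice, 58.3 and 39.1 in middle-aged mice and 75.6, 72.6 and 82.4 in old mice. The sum was higher in every old library than in any other, but each of the 4 genes overlapped between old and young libraries. It is 1 of several sums by role, came mostly from Mybpc1 in 5 of the 8 libraries, and was not tested. Of all single genes tested, 10% did not overlap between old and young libraries and 19.9% between old and middle-aged ones. Mybpc1, the slow myosin-binding protein C, lies at chr10:88518279-88605152 (minus strand) and had 42.1, 8.18 and 24.9 TPM in young mice, 30.2 and 15.4 in middle-aged mice and 56.5, 34.4 and 41.9 in old mice. Old values lay above both middle-aged ones, and young library 1 lay within the old range. Ttn, which encodes titin, the spring that runs from Z-disc to the middle of the sarcomere, lies at chr2:76703980-76982547 (minus strand). It stood at 5.80, 12.2 and 7.54 TPM in young mice, 16.02 and 6.18 in middle-aged mice and 7.36, 25.3 and 24.9 in old mice. Old libraries 2 and 3 were the highest, but old library 1 was within the young range. Neb, which encodes nebulin, a ruler of thin filament length, stood at 8.82, 22.5 and 5.04 TPM in young mice, 10.03 and 17.5 in middle-aged mice and 11.7, 12.9 and 15.6 in old mice, with the lowest and the highest value both in young libraries. Mybpc2, the fast myosin-binding protein C, was listed at 2.07 TPM in middle-aged library 1 and at 0 in the other 7.

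Apart from Des, Z-disc genes were low beside the most abundant members. The share of all genes with a lower mean was 81% for Actn3, 67.8% for Ldb3, 51.2% for Tcap and 48.9% for Actn2. Actn3, the alpha-actinin that anchors thin filaments in fast fibres, was found in 7 libraries at 5.74 to 14.4 TPM and listed at 0 in middle-aged library 2. Actn2, the alpha-actinin of all skeletal fibres and heart, was found in 3 libraries at 1.03 to 5.36 TPM. Ldb3, a Z-disc scaffold, ranged up to 13.4 TPM, in young library 2. Tcap, which caps titin at the Z-disc, was listed at 6.89 TPM in young library 3 and 3.37 TPM in old library 2 only.

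Among the calcium-handling genes, Atp2a1, the calcium pump of the fast sarcoplasmic reticulum, had the highest level. It lies at chr7:126445858-126463108 (minus strand) and stood at 9.34, 0 and 21.1 TPM in young mice, 2.17 and 12.6 in middle-aged mice and 14.8, 2.68 and 51.2 in old mice. Old library 3 was the highest of all, and the ages overlapped. Its exons overlap those of Rabep2 on the opposite strand over 21.9% of their bases, and Rabep2 was also highest in old library 3, at 22.3 TPM against 0 to 7.81 TPM in the other 7. Casq1, the calcium store protein, was listed at 7.8 TPM in middle-aged library 2, 9.51 TPM in old library 1 and 10.5 TPM in old library 3. Ryr1, the calcium release channel, stayed at 0.84 TPM or less. Of the energy and oxygen genes, Ckm (muscle creatine kinase) was listed at 3.77 TPM in young library 1 only. Mb (myoglobin) was at 8.04 TPM in middle-aged library 2 and 3.29 TPM in old library 2, with 27.6% of its exon bases under an antisense transcript.

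Grouped by the fibre in which they are mainly used, the members gave fast, slow and shared sums that overlapped between all ages, and a developmental sum that was higher in both middle-aged libraries than in all 3 young ones. The adult fast group held 12 genes and left out Myl1 and Mylpf, the light chains of fast fibres. Its sum was 42.9, 34.4 and 30.9 TPM in young mice and 35.2 and 20.4 TPM in middle-aged mice. In old mice it was 54.4, 25.7 and 78.5 TPM. The 5 genes of slow fibres summed to 90.7, 24.5 and 32.4 TPM in young mice, 65.6 and 17.2 in middle-aged mice and 89.5, 42.98 and 60.4 in old mice. Old library 3 had the highest fast sum, while old library 2 was below all 3 young libraries. Library 1 of each age had the highest slow sum of its age. The 3 developmental genes (Myh3, Myh8 and Actc1) summed to 6.75, 0 and 0 TPM in young mice, 16.3 and 18.6 in middle-aged mice and 7.22, 4.28 and 22.6 in old mice. Young libraries 2 and 3 were listed at 0, and young library 1 lay below both middle-aged libraries and within the range of the old ones. Actc1 supplied 11.02 and 14.7 TPM of the 2 middle-aged sums and Myh8 the rest, with Myh3 listed at 0 in both. Of all single genes tested, 18% did not overlap between middle-aged and young libraries. These sums were not tested. The other 14 genes, counted as shared between fibre kinds, held most of the total in every library, from 262 to 560 TPM. They include both light chains of fast fibres, so the fast sums above are without them. Together the light chains had 5.17, 16.3 and 0 TPM in young mice and 0 and 0 in middle-aged mice. In old mice they had 53.8, 4.14 and 51.75 TPM.

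**Figure D2:**
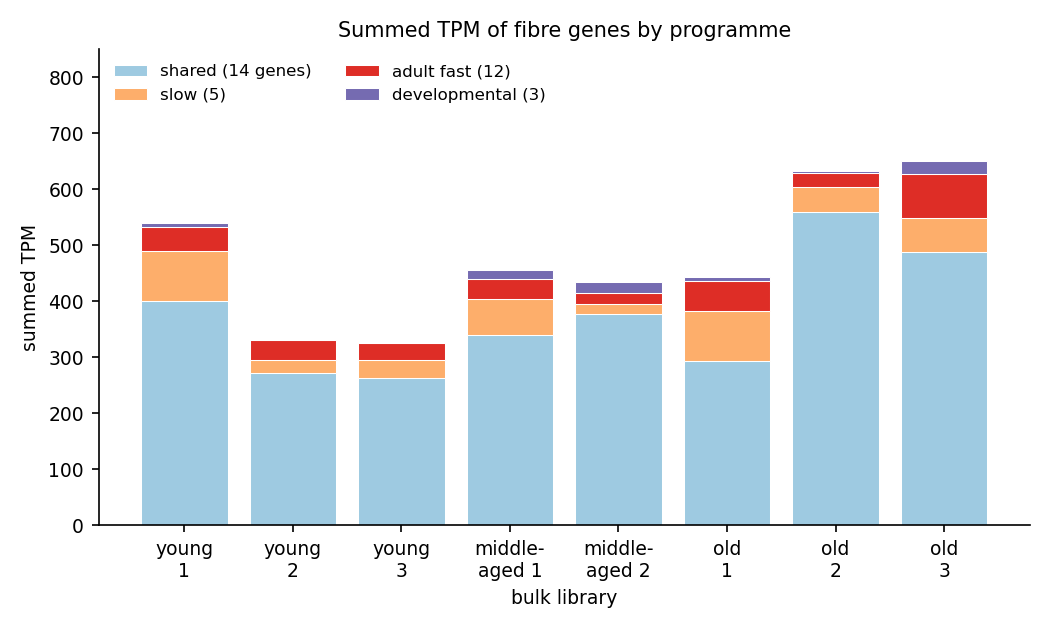
Summed TPM of the 34 genes in each bulk library, stacked by the fibre in which they are mainly used (14 shared, 5 slow, 12 adult fast and 3 developmental genes). The fast light chains Myl1 and Mylpf are counted as shared. The total ranges from 326 TPM in young library 3 to 650 TPM in old library 3, and the shared genes make up most of each bar.

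All 34 genes together summed to 540.2, 330.5 and 326 TPM in young mice, 456 and 434 in middle-aged mice and 444, 633 and 649.8 in old mice. The means were 399 ± 122 TPM (SD, n = 3) in young, 445 ± 15.4 TPM (n = 2) in middle-aged and 576 ± 114 TPM (n = 3) in old libraries. Young library 1, at 540.2 TPM, lay above old library 1, at 444 TPM, so these ages overlapped. At 1 TPM or more, young libraries held 19, 13 and 10 members, middle-aged ones 17 and 14, and old ones 19, 20 and 19. Young library 2, with 13, also had the fewest genes of all kinds at 1 TPM or more, 12849, while young library 3, with 10, had 14559.

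No member passed the test between old and young muscle stem cells, given the spread between libraries. At an adjusted p under 0.05 (limma on log2(TPM + 1) over all 22492 genes, Benjamini-Hochberg), 0 of the 24 members tested were called, as were 0% of all genes. The levels set side by side give differences with wide intervals, on the log2(TPM + 1) scale, which understates changes of low genes. Des differed by -0.02 (SE 0.38, 95% interval -0.87 to 0.83, adjusted p = 1). Tpm1 differed by 0.43 (SE 0.34, interval -0.33 to 1.19) and Tpm2 by 1.04 (SE 0.57, interval -0.21 to 2.30). Mybpc1 differed by 1.03 (SE 0.59, interval -0.28 to 2.35) and Ttn by 0.97 (SE 0.66, interval -0.50 to 2.44). The adjusted p of these 4 genes was 0.839 each. Atp2a1 differed by 1.24 (SE 1.27, adjusted p = 0.863), and by -0.06 without young library 2, in which it was listed at 0. The interval of Des reaches less than 1 log2 unit either way, while those of the other 5 leave room for a difference of more than 1 unit upward.

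Weaker rules gave few members either. At an unadjusted p under 0.05, 2 of the 24 were past the threshold, both higher in old libraries, against 5.89% of all genes tested in either direction and 3.72% upward. These were Myl1 (adjusted p = 0.808) and Actc1 (adjusted p = 0.833), named after their values had been seen. The 3 old and 3 young libraries did not overlap in 0 of the 24 members, against 10% of all genes (5.85% higher and 4.16% lower in old libraries). The difference was above 0 in 18 of the 24 and below 0 in 6, against 49.6% and 45.8% of all genes, and its median was 0.66 against 0. A gene can enter these 24 through the age at which it is high. Over all 34 members, 21 had a higher mean log2 value in old libraries, 9 a lower one and 4 the same. Their median difference was 0.42, beside 0 over all genes. When 1 library was left out, the split depended on which one. It was 14 higher and 10 lower without young library 3 (median 0.43) and 21 and 3 without old library 1 (median 0.81). The medians over all genes tested were then 0 and 0.11.

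**Figure D3:**
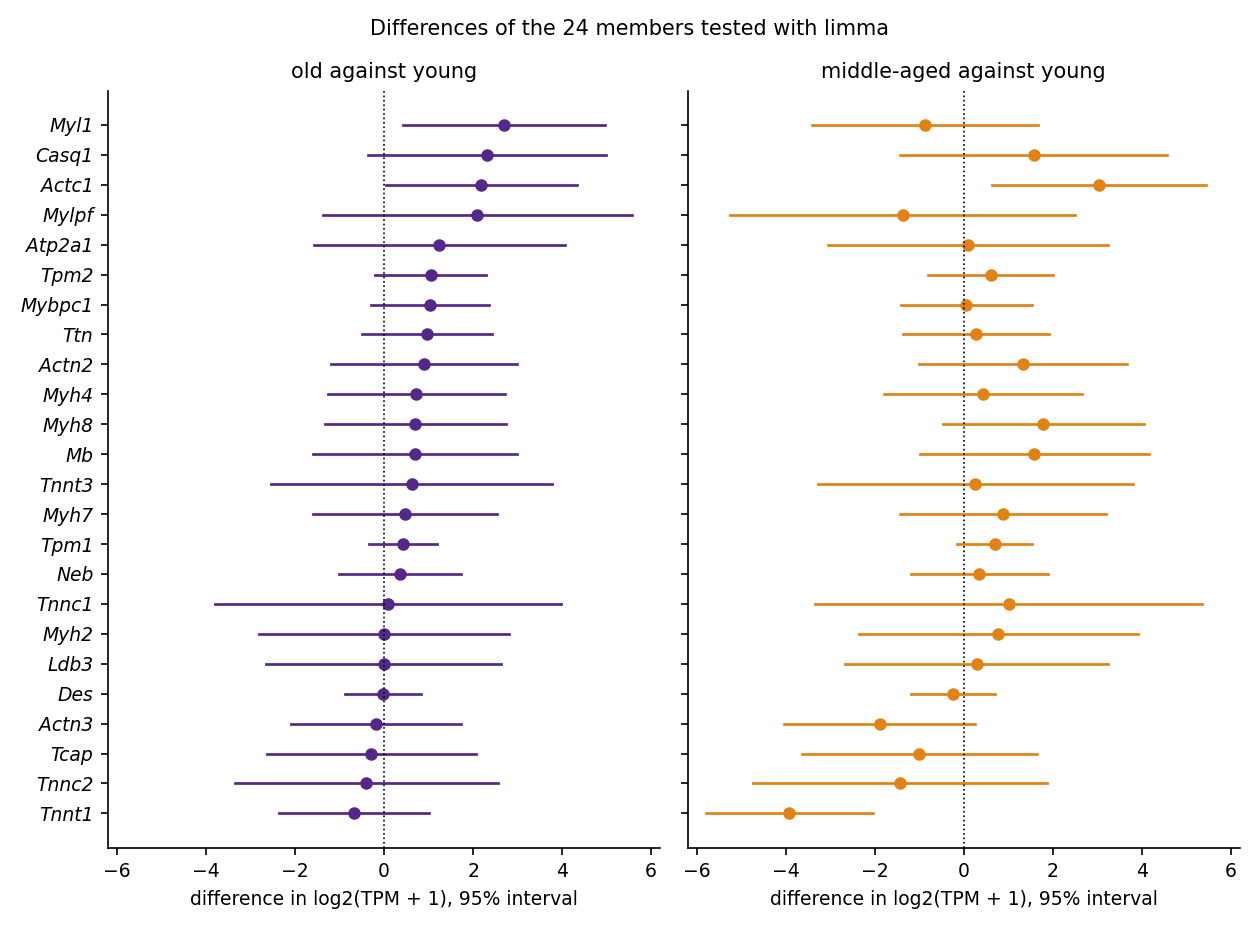
Difference in log2(TPM + 1) of the 24 members tested, old against young on the left and middle-aged against young on the right, with points for the fitted difference and lines for its 95% interval (limma, 8 libraries). The interval crosses 0 for all members on the left except Myl1 and Actc1 and on the right except Tnnt1 and Actc1, and no member passed the adjusted threshold.

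Between middle-aged and young libraries the largest fitted differences were those of Tnnt1 and Actc1, again without a call. At an adjusted p under 0.05, 0 of the 24 members were called, against 0.00445% of all genes (1 gene). Tnnt1, at 7.50 to 26.5 TPM in young libraries, was listed at 0 in both middle-aged ones. Its fitted difference was -3.91 (SE 0.85, adjusted p = 0.295), a value that depends on the pseudocount and is no fold. Actc1 was higher by 3.05 (SE 1.08, adjusted p = 0.494), Myh8 by 1.79 (SE 1.02, adjusted p = 0.626) and Tpm1 by 0.69 (SE 0.38, adjusted p = 0.626) in fitted values. These 4 were the members whose middle-aged and young libraries did not overlap, 3 upward and 1 downward, against 12.6% and 5.37% of all genes (18% together). An unadjusted p under 0.05 was reached by 1 of the 24 upward (Actc1, against 5.5% of all genes) and 1 downward (Tnnt1, against 2.28%), with 7.78% of all genes in either direction.

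The remaining abundant members had smaller fitted differences at middle age, with errors of similar or larger size. That of Des was -0.23 (SE 0.43, interval -1.18 to 0.71), of Tpm2 0.60 (SE 0.63), of Ttn 0.27 (SE 0.74), of Mybpc1 0.06 (SE 0.66) and of Atp2a1 0.10 (SE 1.42), all with adjusted p of 0.77 or more. The sign of Mybpc1 and Atp2a1 turned when genes were scaled to the upper quartile, to -0.14 and -0.04. The median difference was 0.32 over the 24 members and 0.18 over all genes, which upper-quartile scaling moved to 0.12 and 0. The split of 17 members above 0 and 7 below, against 55.2% and 40.6% of all genes, became 14 and 9 under that scaling. Without middle-aged library 1 it was 10 and 13, and the median was -0.31.

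Old against middle-aged libraries likewise gave 0 of 24 members called and 0% of all genes. Mybpc1 (0.97, SE 0.66, adjusted p = 0.753), Myl1 (3.56, SE 1.15, adjusted p = 0.664) and Tnnt1 (3.24, SE 0.85, adjusted p = 0.508) were higher in every old library than in both middle-aged ones. Myh8 was lower (-1.08, SE 1.02, adjusted p = 0.817). Myl1 and Tnnt1 were listed at 0 in both middle-aged libraries, so their differences are no folds. These 3 of 24 upward and 1 downward compare with 7.15% and 12.8% of all genes (19.9% together). An unadjusted p under 0.05 was reached by Myl1 and Tnnt1, both upward, and by 0 members downward, against 2.34% and 3.85% of all genes (6.19% together). The difference was above 0 in 15 of the 24 and below 0 in 9, against 42.4% and 53% of all genes. Des differed by 0.21 (SE 0.43), Tpm1 by -0.27 (SE 0.38), Tpm2 by 0.44 (SE 0.63), Ttn by 0.69 (SE 0.74) and Atp2a1 by 1.14 (SE 1.42), with adjusted p of 0.834 or more. The 3 comparisons share libraries and are not independent of each other.

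Another 76 genes of the fibre, from sarcomere, triad and fibre metabolism, gave no call either. This list and those below were chosen with earlier results of these data known, so they are no independent second set. Of these, 53 averaged 1 TPM or more and were tested, 7 were at 0 in all libraries, and 0 were called in any comparison. In old against young libraries 35 of the 53 were above 0 and 18 below, beside 49.6% and 45.8% of all genes, with a median difference of 0.67 beside 0. The split was 34 and 17 for middle-aged against young (all genes 55.2% and 40.6%) and 25 and 28 for old against middle-aged libraries (42.4% and 53%). An unadjusted p under 0.05 (limma) was reached by 3 of the 53 upward and 2 downward in old against young libraries (all genes 3.72% and 2.17%). The counts were 5 and 3 for middle-aged against young (5.5% and 2.28%) and 2 and 1 for old against middle-aged libraries (2.34% and 3.85%). The highest was Tpm3, the slow tropomyosin gene that also gives a form used outside muscle, with 176, 94.8 and 76.4 TPM in young mice, 176 and 171 in middle-aged mice and 138, 102 and 146 in old mice. Cryab, a small heat shock protein that binds desmin, ranged from 49.5 to 201 TPM, Fhl1 from 63.2 to 126 TPM and Asb5 from 19.96 to 258 TPM. Asb5 was higher in both middle-aged libraries, at 96.8 and 258 TPM, than in any other library. The 7 genes at 0 throughout included Cacna1s, the voltage sensor of the triad, and Ckmt2, Cox6a2, Cox7a1 and Cox8b, muscle forms of mitochondrial proteins.

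Regulators of differentiation gave no call either. Of 14 such genes matched and tested with limma, 0 were called in any comparison. An unadjusted p under 0.05 (limma) was reached by 1 of the 14 upward and 1 downward in old against young libraries (all genes 3.72% and 2.17%). It was reached by 0 at middle age against young (all genes 7.78% in either direction). In old against middle-aged libraries it was reached by 1, upward (all genes 2.34%). Myog, the factor that drives terminal differentiation, was listed at 7.36 TPM in young library 2 and 21.6 TPM in old library 3, and at 0 in the other 6. Mylpf was above 0 in those 2 libraries, but also in old library 1, at 34.1 TPM, where Myog was listed at 0. Young library 2 was listed at 0 for the light chain Myl1. Whether these genes go together was not tested. Myod1, which acts earlier, ranged from 4.26 to 37.8 TPM and was found in all 8.

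Markers of other contractile or neighbouring cells were also summed in each library. These lists were chosen with earlier results of these data known, so their counts beside the shares of all genes are description only. The 9 smooth muscle markers, which mark a cell type that also uses Tpm1, Tpm2 and Des, summed to 450 to 648 TPM in young, 690 and 792 in middle-aged mice, and 503.7, 1085 and 996 in old mice. Young library 1, with the second highest Tpm2 (111 TPM), had the lowest smooth muscle sum of the 8 libraries, 450 TPM. All 9 markers were found, and 7 were above and 2 below their young level in old libraries. An unadjusted p under 0.05 was reached by 5 of the 9 upward, against 3.72% of all genes, and 0 were called (limma). Acta2, the smooth muscle actin, stood at 113, 90.8 and 116 TPM in young mice, 214 and 265 in middle-aged mice and 143, 510.1 and 349 in old mice, with old library 2, the highest for Tpm2, also the highest here. Rgs5, another of the 9 and higher on average than Acta2, had a lower mean in old than in young mice, with 228, 318 and 399.7 TPM in young mice, 157 and 270.2 in middle-aged mice and 196, 30.6 and 342 in old mice and its lowest value in old library 2. The part of smooth muscle genes in the tropomyosin and desmin values was not tested. The 11 Schwann cell markers summed to 819 to 1901 TPM in young, 999 and 1399 in middle-aged mice, and 1735 to 6477 in old mice, the highest in old library 2. All 11 were above their young level in old libraries, with 8 past an unadjusted p of 0.05, against 3.72% of all genes upward, and 0 called (limma). The 8 tenocyte markers summed to 9.76 to 32.2 TPM in young mice, 112 and 138 in middle-aged mice and 70.6 to 93.2 in old mice. The 12 fibroblast markers summed to 1158 to 1433 TPM in young mice, 1390.2 and 1230 in middle-aged mice and 1526 to 2154 in old mice, with Cfd and Pi16 at 0 throughout. The 8 endothelial markers summed to 33.01 to 52.2 TPM in young mice, 114 and 64.7 in middle-aged mice and 57.3 to 81.6 in old mice, with Cldn5 at 0 throughout. The 9 macrophage markers summed to 26.8 to 47.05 TPM in young mice, 108 and 77.97 in middle-aged mice and 28.4 to 59.6 in old mice, with C1qa and Tyrobp at 0 throughout. The 5 red blood cell markers summed to 43.8 to 85.4 TPM in young mice, 65.5 and 0 in middle-aged mice and 19.5 to 53.6 in old mice. The part of these cell types in the member values was not tested. Of 6 markers of heart muscle, which shares Actc1, Myh7 and Tnnc1, Myl7, Nppa, Nppb and Tnni3k were at 0 in all libraries, and the sum never passed 2.93 TPM.

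In single wells, fibre genes were found in most wells of the young mouse, but 1 or few at a time. A member at 1 TPM or more was found in 49 of 64 young wells, 76.6% (95% Clopper-Pearson interval 64.3 to 86.2%), and in 7 of 31 old wells, 22.6% (9.59 to 41.1%). The median number of members was 1 per young well, with a maximum of 5, and 0 per old well, with a maximum of 3. The wells differed in what they held: 1854 genes at 1 TPM or more in the median young well and 64 in the median old well. Among wells with at least 1000 genes, a member was found in 44 of 54 young wells (81.5%) and in 6 of 7 old wells (85.7%, interval 42.1 to 99.6%). Each age is 1 mouse, so no test between ages was made, and intervals cover the sampling of wells only. No pair of wells held identical values.

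**Figure D4:**
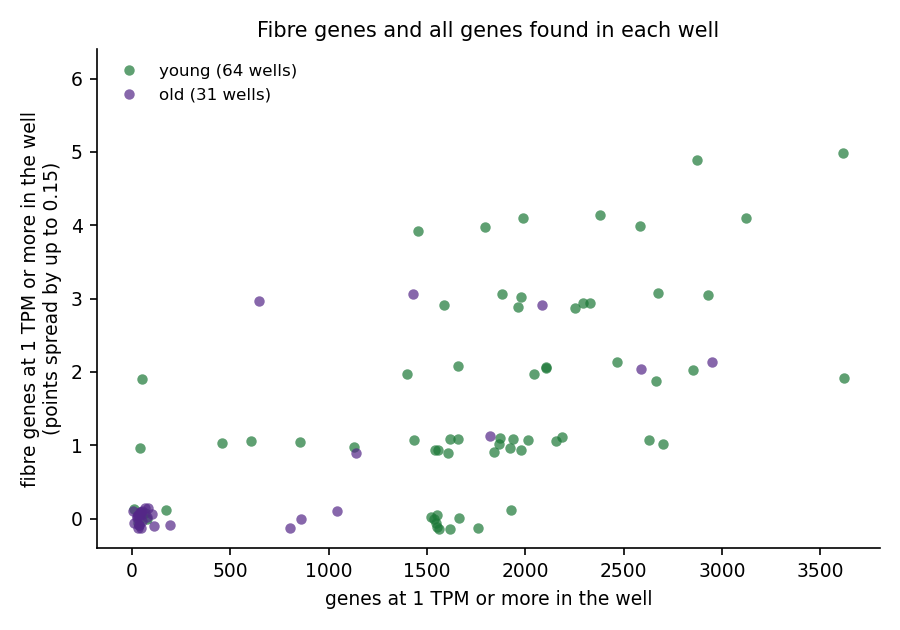
Number of the 34 fibre genes at 1 TPM or more in each well against the number of all genes at 1 TPM or more in that well, for 64 young and 31 old wells (points are spread vertically by up to 0.15 to keep them apart). Most old wells sit at the lower left, and the well with the most genes of the old mouse, 2950, had 2 fibre genes.

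Des was found in the most wells. It was at 1 TPM or more in 31 of 64 wells, 48.4% (95% interval 35.8 to 61.3%), of the young mouse, with a median of 64.6 TPM and a maximum of 196 TPM where found. In the old mouse it was found in 5 of 31 wells, 16.1% (95% interval 5.45 to 33.7%). Among wells with at least 1000 genes the counts were 29 of 54 young and 4 of 7 old wells. Of the 31 young wells with Des, 23 also had Pax7, which was found in 39 young wells.

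Tpm1 and Mybpc1 followed, each in 12 young wells (18.8%, interval 10.1 to 30.5%), then Actn3 in 10 (15.6%) and Tpm2 in 8 (12.5%). In old wells these were found in 1 (Tpm1), 3 (Mybpc1), 2 (Actn3) and 2 (Tpm2). Where found in young wells, Tpm1 had a median of 39.6 TPM and a maximum of 294 TPM, and Actn3 a median of 23.6 TPM and a maximum of 322 TPM. The wells with most fibre RNA did not hold the same genes. Acta1 alone made up 95.1% of the 1264 TPM of fibre genes in young well 40, at 1201 TPM, next to 55.7 TPM of Tpm1. Tpm2 led in young well 2, at 470 TPM, with 149 TPM of Tpm1 and no Des listed. Tpm1 led in young well 49, Mybpc1 in well 41 and Actn3 in well 32, at 294, 253 and 322 TPM.

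**Figure D5:**
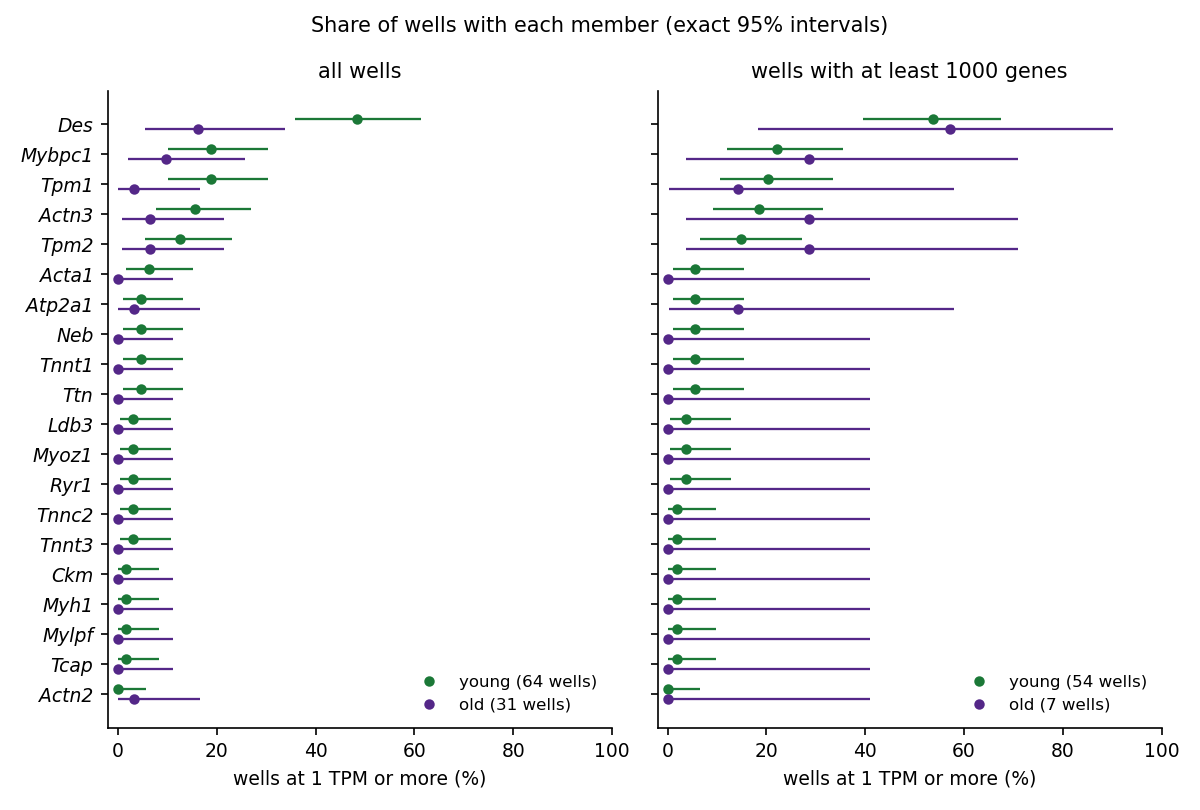
Share of wells with each member at 1 TPM or more, in all wells on the left and in wells with at least 1000 genes on the right, with exact 95% intervals, for the 20 members found in at least 1 well. Des is found most often, and on the right the young and old intervals of every member overlap.

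The genes of terminal differentiation were rare or missing in wells. No well held Myog, and none held Myh3, Myh8 or Actc1 at 1 TPM or more. A count of 0 allows a share of up to 4.69% of young wells and 9.68% of old wells (3 wells of the total). This limits wells in which the gene is listed at 1 TPM or more, not cells that express it, and 24 of the 31 old wells held under 1000 genes. Over the 7 old wells with at least 1000, the exact upper bound of a count of 0 is 40.96%. Of the heavy chains only Myh1 was found, in 1 young well at 138 TPM, and of the light chains only Mylpf, in 1 young well at 22.1 TPM. Acta1 was found in 4 young wells. Tnnt1, Ttn and Neb were found in 3 young wells each and Atp2a1 in 3 young wells and 1 old well. A gene found in 3 young wells was in more of them than 80.4% of all genes. The 12 genes counted as adult fast, without Myl1 and Mylpf, were found in 18 young wells, of which 2 held more than 1 of them.

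Of the 34 members, 13 were found in young wells only, 1 in an old well only and 14 in neither. The young-only members were Acta1, Tnnt1, Ttn and Neb (named above), Tnnt3, Tnnc2, Ryr1, Myoz1 and Ldb3 in 2 wells each, and Myh1, Mylpf, Ckm and Tcap in 1 each. Actn2 was found in 1 old well, at 9.07 TPM. The old mouse had fewer wells and far fewer genes per well. Of all genes, 69.2% were found in no young well and 84.7% in no old well. The split by age was not counted over all genes, so these counts say nothing particular to the members.

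Bulk and wells of young muscle stem cells put most of the same genes first. Des was first and Mybpc1, Tpm1, Tpm2 and Actn3 were among the first 7 of the 34 members by mean TPM in both. Acta1 was 20th in the young bulk libraries, at a mean of 1.24 TPM, and 2nd over the young wells, at 19.6 TPM, most of it from young well 40. Tnnt1 was 5th in bulk, at 15.9 TPM, and 13th in wells, at 0.498 TPM. Tnnc1, at 6.50 TPM in young bulk, reached 1 TPM in no well. In all, 12 members above 0 in a bulk library reached 1 TPM in no well, and Myoz1, at 0 in all bulk libraries, was found in 2 young wells at 1.32 and 2.17 TPM. The tables were normalised separately, so levels are compared by order only.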

How the data were processed

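Bulk and single-cell tables hold TPM, per the labels; the authors' processing notes name STAR and mm10, while annotation, quantification tool, strandedness and versions were not given in the sources used here. Of 45798 bulk entries, 92 spike-in RNAs and 2423 entries without an Ensembl identifier (0.71 to 1.17% of TPM) were left out. GENCODE vM21, an annotation of mm10, held 42782 of the 43283 identifiers and gave positions, overlaps and shared 75-base stretches. The members and the other gene lists were chosen with earlier results of these data known.

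All 8 bulk libraries, from separate mice per the design text, were fitted together with limma 3.58.1 (R 4.3.3) on log2(TPM + 1), with two-sided tests and a variance trend on mean level, for the 22492 genes that averaged 1 TPM or more. P values were adjusted by Benjamini-Hochberg over all of them, at a threshold of 0.05. The script was tested on simulated data. TPM keep no depth, so no counting intervals were computed for bulk values. Fitted differences are given for the 6 members with the highest mean and for up to 8 members per comparison whose groups do not overlap. Of other genes, up to 4 per list with the highest mean and the factors Pax7, Myf5, Myod1 and Myog could be named. In wells, the 6 members found most often and those found at 1 age only were named.

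Wells of 1 mouse per age got no test. A gene was called found at 1 TPM or more, with Clopper-Pearson 95% intervals, and a count of 0 was given an upper limit of 3 wells. Alternatives changed the pseudocount, the filter, the scaling, the libraries fitted, the replicate block, the variance trend and the threshold in wells. Figures were drawn with matplotlib 3.10.9 and tables made with pandas 2.3.3, numpy 2.4.6 and scipy 1.17.1 in Python 3.11.15.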

Additional observations from a re-analysis of the deposited data

How the results depend on the processing

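No member was called in any comparison under any of the 17 alternatives of the bulk fit. Of 24 fitted differences of named members, 391 of 406 values under alternatives kept their direction and side of the threshold, with a lowest adjusted p of 0.134. Part of this count was fixed in advance. Changing the filter, the variance trend or the libraries of the third age leaves a fitted difference as it was, and only its adjusted p can move. The median difference of the members tested, old against young, was 1.07 with a pseudocount of 0.1 TPM and 0.22 with 5 TPM, and 0.43 to 0.96 when 1 library was left out. For middle-aged against young it was 0.73 with 0.1 TPM and -0.31 to 0.52 when 1 library was left out, the lowest without middle-aged library 1.

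Calls over all genes for middle-aged against young (1 gene) moved to 7 with a pseudocount of 0.1 TPM, 2 with a mean of at least 5 TPM and 12 without the variance trend. They moved to 0 with 5 TPM, with no filter, after rescaling without mitochondrially encoded genes, after upper-quartile scaling and with only the 2 groups fitted. Leaving out 1 library gave 0 to 884 calls, with 599 without middle-aged library 1 and 884 without middle-aged library 2. Old against middle-aged (0 genes) gave 6 with 0.1 TPM and 0 to 799 when 1 library was left out, with 557 and 799 without those same libraries. The lone middle-aged library is then assumed to vary like the other groups. The cause was not tested.

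Directions turned for differences of 5 named members, none of them called, among them that of Atp2a1, old against young (1.24). Atp2a1, middle-aged against young, was -0.13 with a pseudocount of 5 TPM, -0.041 after upper-quartile scaling and -1.20 to 1.15 when 1 library was left out. Its old against young difference was -0.062 to 2.23 when 1 library was left out. Des, old against young, was 0.0032 without mitochondrially encoded genes, 0.0049 after upper-quartile scaling and -0.29 to 0.36 when 1 library was left out, and old against middle-aged -0.060 to 0.59. Mybpc1, middle-aged against young, was -0.14 after upper-quartile scaling and -0.56 to 0.55 when 1 library was left out. Leaving out 1 library gave -0.063 to 0.77 for Tpm2, old against middle-aged, and -0.35 to 0.90 for Ttn, middle-aged against young. The cause was not tested.

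Without mitochondrially encoded genes the members summed to a mean of 659 TPM in young, 726 TPM in middle-aged and 960.2 TPM in old libraries. In wells with at least 1000 genes the old mouse had a median of 2 members per well and a member in 85.7% of wells, since wells with few genes are then left out. With the replicate number as a block, 0 members and, for middle-aged against young, 0 genes were called, and the median differences of the members were 0.66, 0.27 and 0.29. Libraries with the same number did not deviate together (r = -0.012 to 0.005), so the numbers were not taken as pairs. With no depth in TPM, low values and values of 0 carry an unknown counting error.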
